A study of Mus musculus with 13 samples.

Results

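The 10 genes described here encode the matrix metalloproteinases and the tissue inhibitors of metalloproteinases (TIMPs) of fibroblasts, namely Mmp2, Mmp3, Mmp10, Mmp11, Mmp13, Mmp14, Timp1, Timp2, Timp3 and Timp4. They were chosen by symbol and found by their Ensembl identifiers in both deposited tables, which list 55487 genes each. Their RNA was followed in 13 poly-A RNA-seq libraries made from mouse embryonic fibroblasts (MEFs), taken before and after the cells became immortal spontaneously in culture. The wild-type (WT) libraries were 3 primary cultures, clones 3, 4 and 5, from 3 embryos by the study's methods, and the 3 immortalized lines of the same numbers. The libraries labelled Prkd3-/-, for a gene that encodes a protein kinase D, were 3 primary cultures, from clones 13, 14 and 15, and 4 immortalized lines named 13, 13a, 14 and 15. All cells were grown in 10% fetal calf serum, which was raised to 20% once a culture became senescent. Each line arose from colonies that outgrew the senescent culture. The study's methods, written for the WT cells, state that immortalized lines were then expanded in 10% serum again. No strain and no embryonic age is given in the labels, and what sets line 13a apart from line 13 is not stated.

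Matrix metalloproteinases are zinc-dependent proteases that cut collagens, proteoglycans and other proteins around the cell, and most are secreted as inactive precursors. Mmp2 is a gelatinase, Mmp3 and Mmp10 are stromelysins, Mmp13 is a collagenase, and Mmp14 is anchored in the cell membrane, where it cuts collagen and activates the Mmp2 precursor. Mmp11 is activated inside the cell by furin-like proteases. TIMPs bind the active proteases and block them, and Timp2 also bridges Mmp14 and the Mmp2 precursor during activation. In fibroblasts Mmp2, Mmp14 and Timp2 are known as steadily transcribed genes, whereas Mmp3, Mmp10, Mmp13 and Timp1 are known to respond to growth factors and cytokines through AP-1 sites.

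The data were counts of read pairs per gene, with totals of 55436367 to 90654323 in the WT libraries and of 35273408 to 100441756 in those labelled Prkd3-/-. Levels within a gene are given as CPM, counts scaled by library size, after TMM normalization over the 13 libraries, and levels between genes as TPM, a share of the library that also divides by the exon length of each gene. At these depths 3 counts, taken as the lowest level that can be told from 0, amount to 0.0279 to 0.0848 CPM, and such floors and all counting intervals cover counting error only. All 8 fibroblast markers examined reached 1 CPM in every group. The summed level of 9 macrophage markers was 1355 to 1377 CPM in WT primary and 56.3 to 134 CPM in WT immortalized libraries, and it ranged from 152 to 1973 CPM in Prkd3-/- primary and from 12.7 to 326 CPM in Prkd3-/- immortalized libraries. Of these 9 markers, 7 fell in WT at the thresholds given below, where 1.76% of all genes tested did. In Prkd3-/- edgeR called 0 of them and 0.0% of all genes, and the Log2FC of all 9 was below 0, with a median of -3.32. None of them was at 0 throughout a group. In bulk RNA, fewer cells of a type and less RNA per cell cannot be told apart. The targeted gene Prkd3 was still counted at 33.8 to 43.2 CPM in Prkd3-/- primary and at 43.4 to 61.1 CPM in Prkd3-/- immortalized libraries, against 69.7 to 73.9 and 74.8 to 93.6 CPM in the WT groups. Counts summed over a gene do not show whether some of its exons are missing, so Prkd3-/- names the label here. Each WT primary library held both Xist RNA (44.0 to 56.3 CPM) and RNA of 4 Y-linked genes (103 to 121 CPM in sum), whereas WT line 3 held 173 CPM of Xist and 0.393 CPM of the Y-linked genes. Xist is transcribed in female cells and Y-linked genes in male cells, so these values do not show that each WT primary library came from 1 embryo, and neither the 3 separate embryos nor the descent of a line from the primary culture of its number was tested. The Prkd3-/- libraries held 0 to 0.0577 CPM of Xist as primary cultures and 0.0137 to 0.158 CPM as lines. Their Y-linked sums were 127 to 161 and 113 to 212 CPM. Every WT library held at least 44.0 CPM of Xist. Sex and genotype therefore cannot be told apart where the genotypes are compared, the interaction included. In Prkd3-/- the labels give a shared number and no embryo. Folds of a line against the primary library of its number rest on the labels in both genotypes. The WT primary libraries were also very alike, so a p-value measures only the spread between these libraries, part of which may be technical.

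In the WT primary libraries Timp2 was the most abundant member per length, at 1577 ± 34.9 TPM (SD, n = 3). Timp1 followed at 462 ± 6.22 TPM, then Mmp2 at 397 ± 38.4, Mmp14 at 338 ± 10.1 and Timp3 at 231 ± 4.40 TPM. No library of one of these 5 genes overlapped in TPM with any library of its neighbour in this order. Mmp11 stood at 49.2 ± 1.35, Mmp3 at 33.0 ± 4.21 and Mmp13 at 8.05 ± 2.30 TPM. Mmp10, at 0.406 ± 0.157 TPM, and Timp4, at 0.116 ± 0.0138 TPM, were close to the floor. The Prkd3-/- primary libraries had Timp2 at 1389 ± 272, Timp1 at 1036 ± 395, Mmp14 at 308 ± 27.5, Mmp2 at 276 ± 83.6 and Timp3 at 165 ± 38.0 TPM. There Timp2 overlapped with Timp1, Mmp14 with Mmp2, and Mmp2 with Timp3. The genotypes came in separate tables and differ in Xist, as given above. Their primary levels were set side by side without a test.

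**Figure D1:**
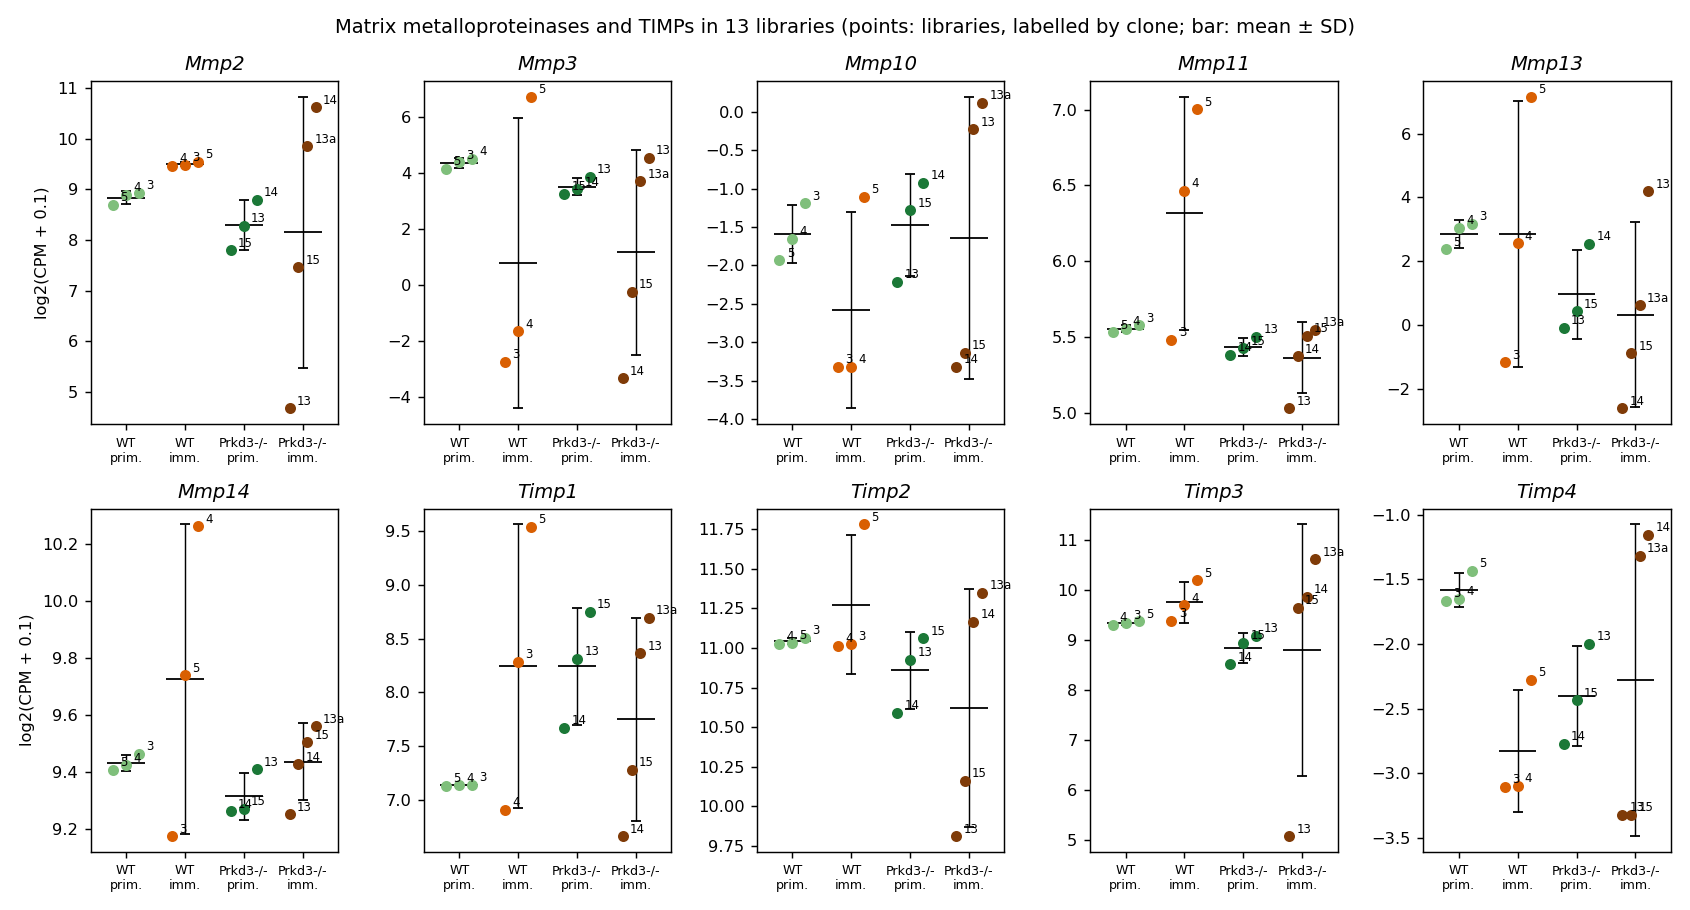
Levels of the 10 genes in each of 13 libraries, as log2(CPM + 0.1) on a scale of its own per gene, with points labelled by clone and black bars for the mean ± SD of each group. The WT primary libraries lie close together in most panels, and the immortalized lines are far apart for Mmp3 and Mmp13 in both genotypes and for Mmp2 and Timp3 in Prkd3-/-.

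Each genotype was tested for a difference between immortalized and primary libraries with edgeR's two-sided quasi-likelihood test over all genes left by its low-count filter and Benjamini-Hochberg adjustment. A gene was called at an adjusted p-value under 0.01 and an absolute log2 fold change (Log2FC) of at least 1. In WT 0 of the 10 members were called, against 1.82% of the 19836 genes tested. At an unadjusted p under 0.05 there were 2 of 10 members in WT and 3905 of the 19836 genes, a share much like that of the members. In Prkd3-/- 0 of 10 were called and 0 had an unadjusted p under 0.05, where edgeR called 0.0% of 20298 genes and 1331 had an unadjusted p under 0.05. DESeq2 at the same thresholds called 0 of the 9 members to which it gave an adjusted p in each genotype (none was given for Mmp3 in WT and Mmp13 in Prkd3-/-), and 5.94% of all genes in WT and 0.781% in Prkd3-/-. The change in Prkd3-/- minus that in WT was tested as an interaction over 13 libraries, and 0 of 10 members passed an adjusted p of 0.05, with 1 at an unadjusted p under 0.05 (Mmp11). There too edgeR called 0.0% of 21197 genes, with 841 at an unadjusted p under 0.05, and every member had an adjusted p of 1.00. The median Log2FC of the 10 members was 0.56 in WT and 0.38 in Prkd3-/-, beside 0.04 and 0.07 over all genes tested. Because the members span large increases and large decreases in different lines, these medians describe no common direction.

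**Figure D2:**
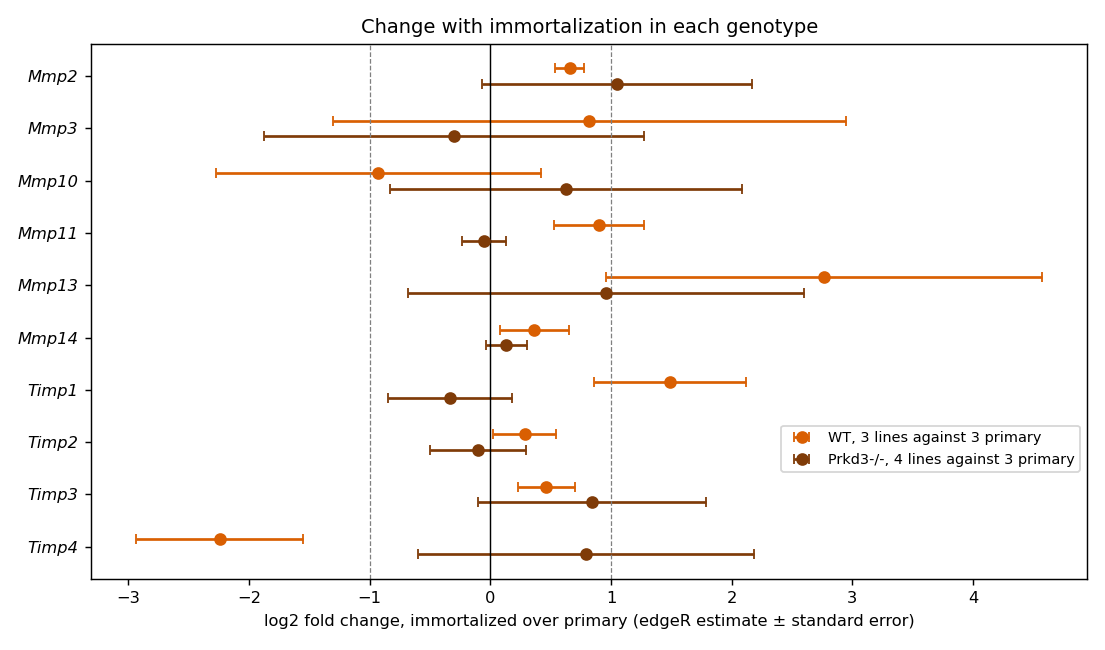
Log2 fold change of each gene, immortalized over primary, as the edgeR estimate ± its standard error in WT (3 lines and 3 primary libraries) and Prkd3-/- (4 lines and 3 primary libraries), with dashed lines at the fold threshold. Mmp2 in WT has a short error bar and lies under the threshold, and the bars of Mmp3, Mmp10 and Mmp13 cross 0 or reach over more than 2 log2 units.

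Mmp2, the gelatinase (chromosome 8, 92827291 to 92853420, plus strand, GRCm38), was the member that moved most evenly in WT. Its level was 488, 475 and 414 CPM in primary clones 3, 4 and 5 and 715, 707 and 746 CPM in the lines of the same numbers. All 3 lines stood above all 3 primary libraries, which 13.5% of the genes tested in WT did, and the lines differed among themselves by only 1.06-fold. The Log2FC was 0.66 ± 0.12 (SE, n = 3 per state) with an adjusted p of 0.0388 in edgeR's test, which misses both thresholds, and 5.27% of all genes tested had an adjusted p under 0.05. DESeq2 gave an adjusted p of 3.39e-06 at a Log2FC of 0.66, and over 14 alternative fits the adjusted p ranged from 3.39e-06 to 0.928. In the Prkd3-/- primary clones 13, 14 and 15 Mmp2 was at 311, 443 and 223 CPM. In the Prkd3-/- lines it was at 25.4 CPM in line 13, 925 in 13a, 1570.5 in 14 and 176 in 15. Lines 13a and 14 lay above every primary library and lines 13 and 15 below every one, and the highest line held 61.8 times the level of the lowest. Line 13 stood 12.2-fold under the primary library of its number, while line 14 stood 3.55-fold over that of its number. The Log2FC of 1.05 ± 1.12 (SE, 4 against 3 libraries, adjusted p = 0.883 by edgeR) averages over lines that moved in opposite directions.

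Mmp14, the membrane-bound activator of Mmp2 (chromosome 14, 54431612 to 54445364, plus strand), varied least across the lines. It ranged from 680 to 706 CPM in WT primary and from 614 to 681 CPM in Prkd3-/- primary libraries. Its level was 578, 1229 and 855 CPM in WT lines 3, 4 and 5 and 610, 756, 689 and 726 CPM in Prkd3-/- lines 13, 13a, 14 and 15. WT line 4 was thus highest and WT line 3 lowest of all 13 libraries, 2.12-fold apart. The Log2FC was 0.37 ± 0.28 in WT (adjusted p = 0.539) and 0.13 ± 0.17 in Prkd3-/- (adjusted p = 0.894) by edgeR. On the scale of log2(CPM + 0.1), its standard deviation over the 7 lines was 0.36, smaller than the median of 0.48 over 21197 genes and the smallest among the members, whereas Mmp2 had 2.03.

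Mmp3, Mmp10 and Mmp13, the stromelysins and the collagenase, lie within one stretch of chromosome 9 on the plus strand, at 7445822 to 7455975, 7502352 to 7510240 and 7272514 to 7283331. Their promoter windows are printed because they share exact motif matches that the other members with a window lack. RefSeq (GRCm38.p6) gave a window of 250 bases before to 50 after the start for 9 of the 10 members, with none for Mmp2. The windows of the chromosome 9 genes each hold 1 match to TGANTCA, the AP-1 binding site that Fos and Jun proteins recognize, in capitals here (both strands searched, a palindrome apart from its middle base). They are chr9:7445572-7445871, chr9:7502092-7502391 and chr9:7272264-7272563, all read on the plus strand.
Mmp3: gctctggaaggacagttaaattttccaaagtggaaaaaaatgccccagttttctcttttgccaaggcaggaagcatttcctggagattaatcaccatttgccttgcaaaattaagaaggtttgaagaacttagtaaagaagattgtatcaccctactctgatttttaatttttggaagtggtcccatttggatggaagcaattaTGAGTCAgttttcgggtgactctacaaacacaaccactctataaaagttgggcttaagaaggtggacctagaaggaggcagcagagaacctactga
Mmp10: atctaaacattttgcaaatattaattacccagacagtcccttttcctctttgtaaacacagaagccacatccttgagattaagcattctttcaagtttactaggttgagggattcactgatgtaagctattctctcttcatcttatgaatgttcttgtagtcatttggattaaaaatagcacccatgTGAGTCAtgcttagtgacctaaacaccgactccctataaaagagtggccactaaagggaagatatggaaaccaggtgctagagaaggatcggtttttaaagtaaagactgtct
Mmp13: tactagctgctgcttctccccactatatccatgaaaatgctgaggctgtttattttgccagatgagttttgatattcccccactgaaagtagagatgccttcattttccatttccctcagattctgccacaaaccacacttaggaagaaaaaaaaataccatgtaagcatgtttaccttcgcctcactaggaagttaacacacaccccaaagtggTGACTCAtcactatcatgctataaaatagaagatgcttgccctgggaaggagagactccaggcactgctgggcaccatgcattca
The first base of the match lies at -46 in Mmp3, -63 in Mmp10 and -35 in Mmp13, counted from the RefSeq start. Each of these windows also holds 1 match to TATAAA, at -7, -29 and -16. The windows of the other 6 members (Mmp11, Mmp14 and the 4 Timp genes) hold neither. Only these exact letters were searched, and the Timp1 window holds TGAGTAA, a near match to TGANTCA that was not counted. Over 32851 promoter windows, 7.81% hold TGANTCA and 13.6% hold TATAAA. For the other motifs searched, AGGAAG (Ets) occurs in 35.4%, TGTGGT (Runx) in 16.8% and GGGCGG (Sp1) in 35.7% of all windows. GGGCGG was found in Mmp11, Mmp14, Timp1, Timp2 and Timp3, and in none of the chromosome 9 genes. A match describes the letters only, and nothing in these data measures binding.

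**Figure D3:**
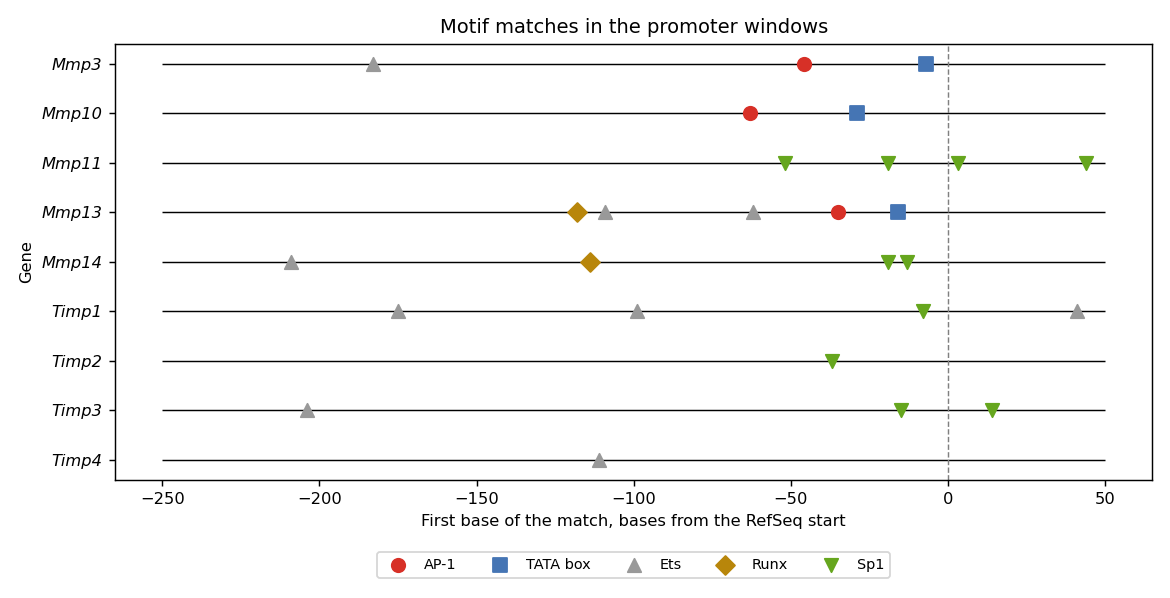
Matches to 5 motifs in the 9 promoter windows, each drawn as a line from 250 bases before to 50 bases after the RefSeq start, with the first base of each match as a symbol. AP-1 and TATA box symbols appear in Mmp3, Mmp10 and Mmp13, and Sp1 symbols appear in 5 other genes.

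Mmp3, a stromelysin that cuts proteoglycans and activates other precursors, was measurable in every primary library and was nearly absent from some lines. It stood at 20.8, 22.6 and 17.8 CPM in WT primary clones 3, 4 and 5. In the lines it stood at 0.0491 CPM in line 3 (3 counts), 0.220 CPM in line 4 (13 counts) and 106 CPM in line 5 (7006 counts). Lines 3 and 4 therefore lay below every primary library and line 5 above every one. Against the primary library of its number, line 3 was 423-fold lower, with a 95% counting interval of 145-fold to 2050-fold. Line 4 was 103-fold lower and line 5 was 5.96-fold higher than the primary library of its number. In Prkd3-/- the primary clones 13, 14 and 15 had 14.5, 10.7 and 9.46 CPM. The Prkd3-/- lines had 23.3 CPM in line 13, 12.9 in 13a, 0 in 14 and 0.748 in 15. With 0 counts, line 14 was at least 224-fold lower than primary clone 14, set against a floor of 3 counts in that library. The edgeR estimates averaged over these opposites, at a Log2FC of 0.82 ± 2.13 in WT (adjusted p = 0.872) and -0.30 ± 1.57 in Prkd3-/- (adjusted p = 0.981). Without WT line 5, Mmp3 was called lower at a Log2FC of -7.23 ± 0.59 and an adjusted p of 0.00388, with a range of 0.00388 to 0.962 over 12 alternatives. The direction also turned with all libraries kept, at -4.09 with limma and -5.09 with the clone as a replicate block.

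Mmp13, the collagenase, was low in primary cells and spread as widely. It stood at 8.90, 8.14 and 5.06 CPM in WT primary clones 3, 4 and 5, and at 0.344, 5.80 and 143 CPM in the lines of the same numbers. Line 5 was 28.2-fold over the primary library of its number and line 3 was 25.9-fold under that of its number, as for Mmp3. Line 4, which was low in Mmp3, lay within the primary range of Mmp13. The Prkd3-/- primary clones 13, 14 and 15 had 0.843, 5.74 and 1.24 CPM, and the lines had 18.2 CPM in 13, 1.43 in 13a, 0.0634 in 14 (4 counts) and 0.441 in 15. Line 13 was 21.6-fold over primary clone 13, which was the lowest of the 3, and line 14 was 90.5-fold under primary clone 14, which was the highest. The Log2FC was 2.77 ± 1.81 in WT (adjusted p = 0.462) and 0.96 ± 1.64 in Prkd3-/- (adjusted p = 0.922) by edgeR. Without WT line 5 the WT value was -1.25 ± 1.11 (adjusted p = 0.515).

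Mmp10, the other stromelysin, was low throughout, with at most 72 counts in a library. It ranged from 0.162 to 0.338 CPM in WT primary and from 0.115 to 0.428 CPM in Prkd3-/- primary libraries. It had 0 counts in WT lines 3 and 4 and in Prkd3-/- line 14, 1 count in Prkd3-/- line 15, and 0.364, 0.754 and 0.983 CPM in WT line 5 and Prkd3-/- lines 13 and 13a. The lines without a count were at least 6.88-fold, 4.30-fold and 8.99-fold lower than the primary libraries of their numbers, in that order. These 3 lines were also the lowest for Mmp3 among the lines. Prkd3-/- lines 13 and 13a, with 41 and 72 counts, were 6.53-fold and 8.52-fold over primary clone 13, which had 10 counts. WT line 5, with 24 counts, was 2.24-fold over primary clone 5, which had 9. The fitted Log2FC of -0.93 ± 1.35 in WT (adjusted p = 0.754) and 0.63 ± 1.46 in Prkd3-/- (adjusted p = 0.950) by edgeR rest on 0 to 72 counts per library. Without WT line 5 the WT value was -7.01 ± 1.11 (adjusted p = 0.0368).

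Over the 7 lines the standard deviation of log2(CPM + 0.1) was 3.96 for Mmp3 and 3.44 for Mmp13, larger than in 99.9% and 99.8% of 21197 genes. It was 1.58 for Mmp10, and larger than in 92.9% of the genes. In the 3 WT primary libraries the members' median was 0.08 and that of all genes was 0.09. In the 3 Prkd3-/- primary libraries the members' median was 0.35 beside 0.25 for all genes. Among the WT primary libraries the standard deviation was already larger than in 94.1% of genes for Mmp13, 91.6% for Mmp10 and 72.2% for Mmp3. Among the Prkd3-/- primary libraries it was larger than in 97.2%, 87.4% and 59.9% of genes, in the same order.

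Mmp11, the furin-activated stromelysin-like enzyme (chromosome 10, 75923222 to 75936496, minus strand), stood at 46.1 to 47.6 CPM in WT primary and at 41.6 to 45.2 CPM in Prkd3-/- primary libraries. It was at 44.6, 88.2 and 128 CPM in WT lines 3, 4 and 5 and at 32.5, 46.6, 41.3 and 45.4 CPM in Prkd3-/- lines 13, 13a, 14 and 15. WT lines 4 and 5 were above every other library, and the Prkd3-/- lines stayed within 1.43-fold of each other. The Log2FC was 0.90 ± 0.37 in WT (adjusted p = 0.264) and -0.05 ± 0.18 in Prkd3-/- (adjusted p = 0.968). Their difference, -0.94 ± 0.40 with an unadjusted p of 0.0375 and an adjusted p of 1.00, does not pass the interaction test by edgeR. Mmp11 shares 155 of its 2778 exon bases with Chchd10 on the other strand.

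Among the inhibitors, Timp1, the inducible one (chromosome X, 20870166 to 20874735, plus strand, inside an intron of Syn1 with 0 shared exon bases), was the most uniform member in WT primary cells and differed widely between the lines. It stood at 141, 141 and 140.4 CPM in WT primary clones 3, 4 and 5. In the lines of the same numbers it stood at 312, 120.2 and 744 CPM. Line 5 was 5.30-fold and line 3 was 2.21-fold above the primary library of its number, and line 4 lay just below every primary library. The Prkd3-/- primary clones 13, 14 and 15 had 318, 204 and 430.4 CPM, and the lines had 329 CPM in 13, 414 in 13a, 101.5 in 14 and 155 in 15. No Prkd3-/- line lay above every primary library, and lines 14 and 15 lay below every one. The Log2FC was 1.49 ± 0.63 in WT (adjusted p = 0.271) and -0.33 ± 0.51 in Prkd3-/- (adjusted p = 0.914), and the difference of -1.80 ± 0.85 had an adjusted p of 1.00 by edgeR. Without WT line 5 the WT value was 0.61 ± 0.39 (adjusted p = 0.375).

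Timp2, which inhibits most of the proteases and takes part in Mmp2 activation (chromosome 11, 118301069 to 118355740, minus strand), ranged from 2087 to 2140.4 CPM in WT primary and from 1539 to 2138 CPM in Prkd3-/- primary libraries. WT lines 3 and 4, at 2087 and 2068 CPM, were within 1.03-fold of the primary libraries of their numbers. WT line 5, at 3522 CPM, was 1.68-fold higher than that of its number. The Prkd3-/- lines had 897 CPM in 13, 2609 in 13a, 2298 in 14 and 1145 in 15, with 13a and 14 above every primary library and 13 and 15 below every one. That order of lines splits as Mmp2 does. The Log2FC was 0.29 ± 0.26 in WT (adjusted p = 0.602) and -0.10 ± 0.40 in Prkd3-/- (adjusted p = 0.970) by edgeR.

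Timp3, the inhibitor that is held in the matrix (chromosome 10, 86300372 to 86349506, plus strand), lies inside Syn3 on the opposite strand and shares 1733 of its 8144 exon bases with it. The pairs were counted without strand and given to each gene they overlapped, so reads of Timp3 and Syn3 cannot be told apart on those bases. The count of Syn3 was 38.2% to 42.1% of that of Timp3 in all 13 libraries. Timp3 stood at 647, 629 and 661 CPM in WT primary clones 3, 4 and 5 and at 666, 826 and 1171 CPM in the lines. All 3 WT lines lay above every primary library after TMM normalization, line 3 by little, and with library size alone line 3 was at 587 CPM and below all of them. The Prkd3-/- primary clones 13, 14 and 15 had 541, 364 and 489.8 CPM, and the lines had 33.7 CPM in 13, 1560 in 13a, 929 in 14 and 798 in 15. Line 13 was 16.1-fold lower than the primary library of its number and the other 3 lines were 1.63-fold to 2.88-fold higher than theirs. The Log2FC was 0.46 ± 0.23 in WT (adjusted p = 0.346) and 0.84 ± 0.94 in Prkd3-/- (adjusted p = 0.885) by edgeR. With the Syn3 counts subtracted the values were 0.44 ± 0.22 (adjusted p = 0.349) and 0.77 ± 0.94 (adjusted p = 0.890). Because the Syn3 count was a nearly constant share of the Timp3 count, this subtraction could hardly change the Log2FC.

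Timp4, known mainly from heart and brain (chromosome 6, 115241892 to 115252205, minus strand, inside Syn2), was barely detected. It had 14 to 20 counts, or 0.215 to 0.270 CPM, in the WT primary libraries and 1, 1 and 7 counts in WT lines 3, 4 and 5. All 3 WT lines lay below every primary library, as did 17.4% of the genes tested. In the Prkd3-/- primary libraries it had 3 to 13 counts, and it had 0 counts in lines 13 and 15 and 22 in each of 13a and 14. The Log2FC was -2.24 ± 0.69 in WT (adjusted p = 0.152) and 0.79 ± 1.39 in Prkd3-/- (adjusted p = 0.926) by edgeR. Without WT line 5 the WT value was -3.67 ± 0.48 (adjusted p = 0.0139).

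Read line by line against the primary library of its number, the members differed from line to line. The counts that follow have no share over all genes beside them, so they describe the members only. WT line 5 had 4 members at least 2-fold higher (Mmp3, Mmp11, Mmp13 and Timp1 on the scale of CPM + 0.1) and 0 at least 2-fold lower, with a median log2 ratio over the 10 members of 0.84. WT line 3 had 1 higher and 4 lower, and WT line 4 had 0 higher and 3 lower. Prkd3-/- line 13 combined 2 higher (Mmp10 and Mmp13) with 4 lower (Mmp2, Timp2, Timp3 and Timp4), and line 14 combined 3 higher (Mmp2, Timp3 and Timp4) with 4 lower (Mmp3, Mmp10, Mmp13 and Timp1). Prkd3-/- line 13a had 3 higher and 0 lower, and line 15 had 0 higher and 4 lower. Lines 13 and 13a carry the same clone number, and Mmp2 and Timp3 lay below primary clone 13 in line 13 and above it in line 13a. Line 13a was also the line with the highest summed macrophage markers, at 326 CPM, and its Mmp2 and Timp3 levels exceeded those of all primary libraries of the genotype, including the one with 1973 CPM of these markers. The summed level of 6 chondrocyte markers was 115 to 162 CPM in the Prkd3-/- primary libraries and 113, 895, 2178 and 414 CPM in lines 13, 13a, 14 and 15, so it was highest in 13a and 14, the lines highest in Mmp2 and Timp3. Most of it was Col2a1, at 804 CPM in line 13a and 2041 CPM in line 14, where Acan, another defining marker, was at 0.328 CPM and 0. In WT the sum was 204 to 262 CPM in primary libraries and 265, 727 and 76.2 CPM in lines 3, 4 and 5. The part of these markers in the levels of Mmp2 and Timp3 was not tested.

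A count of members that went both ways was made with a rule chosen after the values were seen, namely that 1 line lies at least 2-fold above every primary library and another at least 2-fold below every one. In WT 2 of 10 members met it (Mmp3 and Mmp13), as did 2.86% of the genes tested. In Prkd3-/- 5 of 10 met it (Mmp2, Mmp10, Mmp13, Timp3 and Timp4), as did 5.12% of the genes tested, and Mmp10 and Timp4 did so on few counts. In Prkd3-/- 0 of 10 members had every line above (3.85% of genes tested) or every line below (5.62%) every primary library. In WT 2 of 10 (Mmp2 and Timp3) had every line above (13.5% of genes tested) and 1 (Timp4) every line below (17.4%), and with library size alone the first count was 1 (Mmp2). The counts with every line above or every line below are near the shares over all genes. The counts that went both ways are higher than their shares, but under a rule chosen after the values were seen, so they are a description only.

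**Figure D4:**
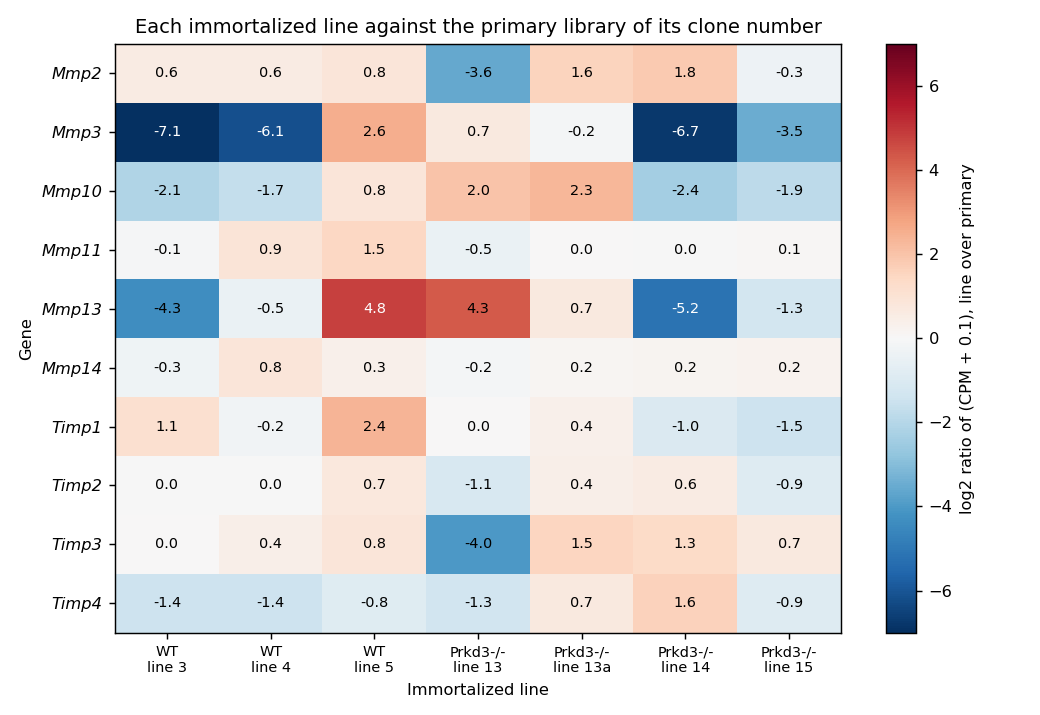
Log2 ratio of (CPM + 0.1) for each of 7 immortalized lines over the primary library of its clone number, one row per gene, with blue for lower, red for higher and the value in each cell. Mmp3 and Mmp13 run from deep blue to red in both genotypes, and in line 13 Mmp2 and Timp3 are blue while Mmp13 is red.

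The 6 proteases and 4 inhibitors were also summed per length. The protease sum was 764 to 869 TPM in WT primary and 883 to 1513 TPM in WT immortalized libraries. Every WT line thus lay above every primary library, line 3 (883 TPM) by little. Of single genes tested in WT, 13.5% had every line above every primary library in CPM. In Prkd3-/- the protease sum was 560 to 707 TPM in primary libraries and 400.3, 1197, 1808 and 575 TPM in lines 13, 13a, 14 and 15. Mmp2 and Mmp14 made up 88.7% to 91.0% of the protease sum in the 6 primary libraries. That share was 69.7% in WT line 5 and 77.5% in Prkd3-/- line 13, where Mmp3, Mmp10 and Mmp13 together held 21.5% and 14.2%. In Prkd3-/- line 14 these 3 genes held 0.00398%.

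The inhibitors exceeded the proteases in every library, by 1.37-fold in Prkd3-/- line 14 to 5.72-fold in Prkd3-/- primary clone 15. The ratio was 2.67, 2.67 and 2.93 in WT primary clones 3, 4 and 5 and 2.98, 1.71 and 3.604 in the lines, so the groups overlapped. In Prkd3-/- it was 3.999, 2.60 and 5.72 in primary clones 13, 14 and 15 and 4.27, 3.12, 1.37 and 2.97 in lines 13, 13a, 14 and 15, which overlapped as well. Timp2 was the most abundant member in every library except Prkd3-/- line 13, where Timp1 was, at 1047 TPM against 651 TPM for Timp2. A ratio of RNA sums does not measure protease activity, since both classes act as proteins.

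**Figure D5:**
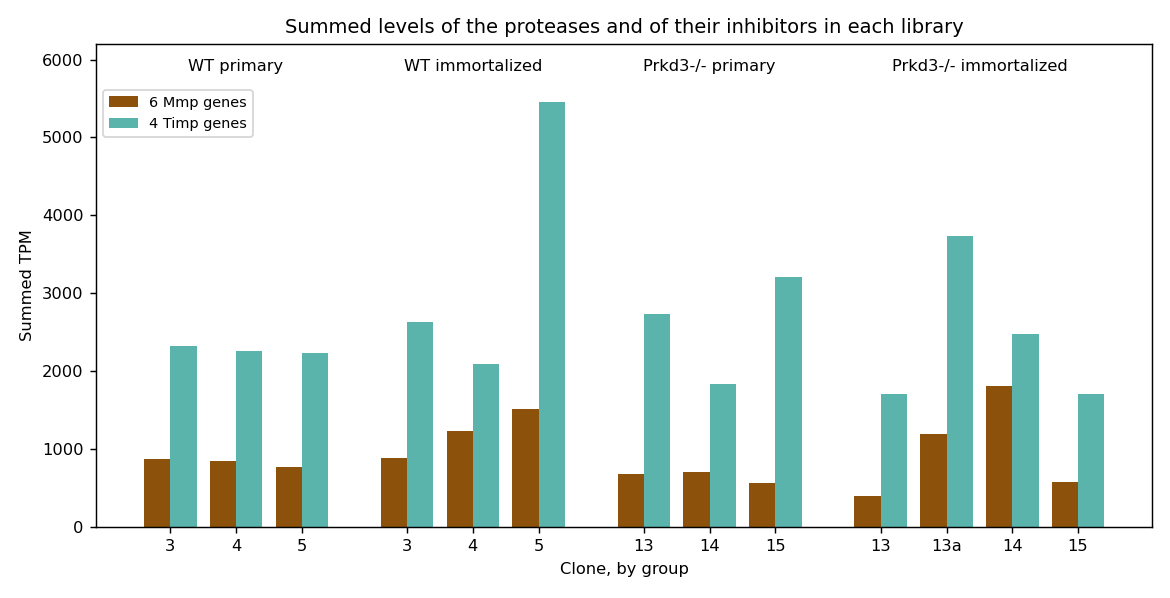
Summed TPM of the 6 Mmp genes (brown) and of the 4 Timp genes (teal) in each of 13 libraries, 1 pair of bars per library, with no error since each bar is 1 library. The teal bar is the taller in every library, and WT line 5 and Prkd3-/- line 14 have the tallest teal and brown bars.

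Other genes of the pathway were counted from lists chosen with earlier results known. Of 17 further Mmp genes, 10 passed the filter in WT, where by edgeR 1 rose (0.0605% of all genes tested did) and 0 fell, and 10 passed in Prkd3-/-, where edgeR called 0, with 2 at an unadjusted p under 0.05, and DESeq2 called 1 (Mmp9). The one that rose was Mmp28, known from skin and other epithelia. It stood at 7.56, 8.46 and 6.90 CPM in WT primary clones 3, 4 and 5 and at 15.1, 18.0 and 18.1 CPM in the lines, with a Log2FC of 1.16 ± 0.14 and an adjusted p of 0.00977 in edgeR's test. The call was lost with the clone as a replicate block (adjusted p = 0.0810) and in 8 of the other alternatives. In Prkd3-/- lines 13, 13a, 14 and 15 Mmp28 was at 1.49, 14.6, 43.1 and 11.8 CPM, against 4.56 to 5.11 CPM in primary libraries, with a Log2FC of 1.86 ± 0.91 and an adjusted p of 0.790. Of 18 activators, receptors and other inhibitors, such as the plasminogen activators and Reck, 16 passed the filter in each genotype and edgeR called 0 in either, with 1 in WT and 2 in Prkd3-/- at an unadjusted p under 0.05 and a median Log2FC of 0.25 in WT and -0.32 in Prkd3-/-. DESeq2 called 2 of them lower in WT (Spock1 and Spock3) and 0 in Prkd3-/-. Of 14 AP-1, Ets and Runx factors, all 14 passed and edgeR called 0 in either genotype, with 2 in WT and 0 in Prkd3-/- at an unadjusted p under 0.05 and medians of 0.29 and 0.15, beside 0.04 and 0.07 for all genes. DESeq2 called 1 of them higher in WT (Runx3) and 0 in Prkd3-/-. In the interaction 0 genes of these lists passed by either tool, with 1 of each list at an unadjusted p under 0.05 in edgeR.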

How the data were processed

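Poly-A RNA-seq of 13 MEF libraries was analysed. The authors mapped read pairs to mm10 with STAR 2.7.10a, used SAMtools 1.18, and counted pairs on Ensembl release 102 genes (GRCm38) with featureCounts of Subread 2.0.6, ignoring strand and giving a pair to every gene it overlapped. They deposited raw counts per gene in 2 tables, and the command behind the Prkd3-/- table is not given in the sources used here, although the labels name the same tools and the genes and lengths are the same. CPM and TPM were computed here from the deposited counts.

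The tables were fitted separately in edgeR 4.0.16 with R 4.3.3 (quasi-likelihood test, TMM, filter on low counts, robust estimation), and the difference between genotypes as an interaction over 13 libraries. The standard error is the Log2FC divided by the square root of F. The thresholds were an adjusted p under 0.01 with an absolute Log2FC of at least 1, and 0.05 for the interaction. In simulated counts with 200 changed genes, edgeR recovered 200 in the WT design (1 false call among 19847 genes), 200 in the Prkd3-/- design (0 among 20473) and 200 in the interaction design (18 among 20739). All genes and libraries were simulated with the same dispersion, and only well-counted genes were changed, by large folds. The wide differences between lines seen for several members were not simulated, so this recovery does not measure the power to call such members. Alternatives were DESeq2 1.42.0 and its size factors, limma 3.58.1 with a weight per state, no filter, 10 counts in every library, an adjusted p under 0.05, all libraries in a joint fit, the clone as a replicate block, lines 13 and 13a summed, library size alone, and each library left out. Lines 13 and 13a left out, and Syn3 counts subtracted from Timp3, were chosen after seeing the data.

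WT primary and immortalized libraries of 1 number are paired by embryo in the study's methods, although their deviations correlated by only -0.0393 to 0.0186. All members are named, and other listed genes where a threshold is passed. Members and lists were chosen with earlier results of these data known. Intervals are exact Poisson intervals at 95%.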

Additional observations from a re-analysis of the deposited data

Results flagged for a closer look

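The level of Mmp13 in Prkd3-/- immortalized line 13, 18.2 CPM, stood apart from the other 3 lines of its group, of which the nearest had 1.43 CPM. The gap was 0.924 of the range of the 4 lines, above Dixon's critical value of 0.829 for 4 samples. It was 1 of 14 gene and group combinations examined on the CPM scale, all in the Prkd3-/- immortalized group, namely the 10 members, the 3 synapsin genes and Prkd3. Chance alone flags about 5% of such groups if the values are normally distributed, which CPM over so wide a range need not be. The rule was not applied on the log2 scale.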

How the results depend on the processing

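In WT edgeR called 361 genes, and 1361 were called by DESeq2, 184 by limma, 157 with at least 10 counts in every library, 868 at an adjusted p under 0.05, 0 with the clone as a replicate block, 0 in the joint fit and 48 to 743 when 1 library was left out (48, 50 and 66 without primary clones 3, 4 and 5, and 743 without line 5). Of the members 0 were called in WT under every alternative except without WT line 5, when 1 (Mmp3) was. In Prkd3-/- the count rose from 0 to 190 with DESeq2 and to 1 in the joint fit. In the interaction it rose from 0 to 37 with DESeq2, to 2 with lines 13 and 13a left out, and to 0 to 2 with 1 library left out (2 without Prkd3-/- line 14). None of these held a member. Log2FC of uncalled members turned sign in WT with limma (Mmp3 -4.09, Mmp13 -0.084) and with the block (Mmp3 -5.09, Mmp13 -0.28). In Prkd3-/- they did so with limma (Mmp2 -0.13, Mmp10 -1.32, Mmp13 -1.15, Timp3 -0.057, Timp4 -0.77), with the block (Mmp10 -2.38, Mmp13 -1.38) and without lines 13 and 13a (Mmp10 -5.02, Mmp13 -3.36). In the interaction they did so with limma (Mmp2 -0.79, Mmp3 0.75, Timp3 -0.48), with the block (Mmp3 1.92) and without lines 13 and 13a (Mmp10 -4.06).

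With 1 library left out the Log2FC ranged in WT from -7.23 to 1.40 for Mmp3, -1.25 to 3.35 for Mmp13 and -0.024 to 0.42 for Timp2. In Prkd3-/- it ranged from -1.33 to 0.11 for Mmp3, -0.19 to 1.09 for Mmp10, -0.12 to 0.045 for Mmp11, -2.004 to 2.29 for Mmp13 and -0.38 to 0.11 for Timp2. In the interaction it ranged from -0.44 to 0.79 for Mmp2, -2.14 to 6.90 for Mmp3, -4.77 to 2.19 for Mmp13, -0.48 to 0.068 for Mmp14 and -0.12 to 0.78 for Timp3. The cause was not tested. Other members kept their direction when 1 library was left out. In Prkd3-/- the labels give only a shared number, and the deviations of libraries with 1 number correlated by -0.283 to 0.141. Such correlations do not show whether a line came from the culture of its number. The block changed no call in Prkd3-/-. Depth limits Mmp10 and Timp4, which had at most 72 and 22 counts in a library. Timp4 passed the filter in 4 of the 7 Prkd3-/- fits with 1 library left out.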

Other observations

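Mmp9, the other gelatinase, which macrophages and osteoclasts are known to make, is named here after its values were seen. It stood at 60.0, 59.8 and 37.4 CPM in Prkd3-/- primary clones 13, 14 and 15 and at 0.791, 2.32, 1.41 and 0.428 CPM in lines 13, 13a, 14 and 15. All 4 lines lay below every primary library, as did 5.62% of the genes tested. The Log2FC was -5.39 ± 0.60, with an adjusted p of 0.209 by edgeR and 1.68e-16 by DESeq2, which called 0.781% of all genes in Prkd3-/-. In WT it stood at 14.4, 14.2 and 24.1 CPM in primary clones 3, 4 and 5 and at 0.753, 0.304 and 10.1 CPM in the lines, with a Log2FC of -2.22 ± 1.26 (adjusted p = 0.403 by edgeR). Unlike Mmp2, which split the Prkd3-/- lines both ways, Mmp9 was lower in every line of both genotypes. In WT 17.4% of the genes tested had every line below every primary library. The summed macrophage markers were lower in the lines of WT too, at 56.3 to 134 CPM against 1355 to 1377 CPM in primary libraries. In Prkd3-/- primary clone 13, however, they stood at 152 CPM while Mmp9 was as high as in clone 14, where they stood at 1973 CPM, and their part in the result was not tested.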
